A study of Mus musculus with 6 samples.

Results

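The cyclin-dependent kinase (CDK) inhibitors and targets of the transcription factor p53 described here are 10 genes of the 27998 in the count tables, chosen by symbol, and each symbol stood for 1 gene. They are the inhibitors Cdkn1a (p21), Cdkn1b (p27), Cdkn2c (p18) and Cdkn2d (p19), the CDK-binding phosphatase Cdkn3, and the p53 targets Mdm2, Ccng1, Phlda3, Bax and Trp53inp1. Cdkn1a is itself a p53 target. They were measured by droplet-based scRNA-seq in cardiomyocytes (CMs) of the left ventricle of C57BL/6J mice at embryonic day 16.5 (E16.5), postnatal day 1 (P1) and postnatal day 5 (P5). No gene was deleted or added and no agent was given in these samples. The cells were fixed in methanol, stained for MYH1 and with the DNA dye Hoechst, and sorted as diploid (2n) or tetraploid (4n), which gave 6 libraries, 1 for each age and ploidy. One label gives day 16.6 for E16.5-4n, whose title gives 16.5. Each library pooled cells of 3 sorts from separate litters before the library was made, so that it is 1 sample, no test between ages or ploidies was possible and no SD can be given. Sorting by DNA content does not tell a mononucleated CM in G2 or M from a binucleated CM, and the 4n libraries hold both.

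CDKs drive the cell cycle when bound to a cyclin. Inhibitors of the INK4 family, to which Cdkn2c and Cdkn2d belong, bind CDK4 and CDK6 and block their pairing with D-type cyclins, whereas those of the CIP/KIP family, Cdkn1a, Cdkn1b and Cdkn1c, bind assembled cyclin-CDK complexes. Cdkn3 removes an activating phosphate from CDKs and, unlike the others, is best known as a gene of dividing cells. p53 is a transcription factor that responds to DNA damage and other stress. Mdm2 is the ubiquitin ligase that degrades it, Ccng1 encodes cyclin G1, Phlda3 restrains AKT signalling, Bax opens the mitochondrial outer membrane in apoptosis and Trp53inp1 acts in autophagy and p53 activation. In the heart, these genes are studied because CMs leave the cell cycle soon after birth, and many become polyploid or binucleated as they do so.

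Promoter sequences are shown for the 3 genes whose upstream bases held the rarest or the densest set of the motifs searched. RefSeq windows (GRCm38.p6) were found for 9 of the 10 genes, and 11 windows in all. In the 250 bases before each start, both strands were searched for the cell cycle homology region TTTGAA (CHR), for CCAAT, and for the p53 response element, here 2 abutting decamers, without a spacer and with at most 1 mismatch of 20 bases. Of all 32851 windows, 16.0% held a CHR, 33.8% held CCAAT and 25, or 0.0761%, held the p53 element. Cdkn1a at its upstream start and Ccng1 were among those 25. The Cdkn3 window held 1 CHR and 3 CCAAT motifs, the Ccng1 window also held 3 CCAAT motifs, and 2.79% of windows held at least 3 CCAAT. Cdkn1a and Cdkn3 are shown on the plus strand and Ccng1 on the minus strand, at chr17:29090729-29090975, chr14:46760291-46760540 and chr11:40755312-40755536, each 5′ to 3′, with bases within the annotated genes left out. Capitals mark the motifs, which read TTCAAA and ATTGG where they lie on the opposite strand, and the long run of capitals in Cdkn1a and in Ccng1 is the p53 element. Of the other genes, Cdkn1b held 2 CCAAT motifs, Cdkn2d and Mdm2 1 each and Bax 1 CHR, and the windows of Cdkn2c and Phlda3 and the second start of Cdkn1a held none of the 3 motifs. A match describes the letters of the window and not a binding site in use.
Cdkn1a: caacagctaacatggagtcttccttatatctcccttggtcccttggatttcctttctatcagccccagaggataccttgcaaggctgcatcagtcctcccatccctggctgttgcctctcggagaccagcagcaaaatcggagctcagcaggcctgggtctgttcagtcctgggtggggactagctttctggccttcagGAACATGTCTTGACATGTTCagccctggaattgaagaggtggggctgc
Cdkn3: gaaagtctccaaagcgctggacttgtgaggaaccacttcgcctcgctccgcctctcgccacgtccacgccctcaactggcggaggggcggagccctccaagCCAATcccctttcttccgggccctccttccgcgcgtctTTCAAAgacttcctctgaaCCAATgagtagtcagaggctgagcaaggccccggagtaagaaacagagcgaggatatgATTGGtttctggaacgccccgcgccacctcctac
Ccng1: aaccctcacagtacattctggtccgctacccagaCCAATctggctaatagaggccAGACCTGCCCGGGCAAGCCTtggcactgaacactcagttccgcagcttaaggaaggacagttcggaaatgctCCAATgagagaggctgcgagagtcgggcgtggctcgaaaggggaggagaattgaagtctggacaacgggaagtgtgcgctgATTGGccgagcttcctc

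Of 31156 cells, 30733 (98.6%) held at least 1 UMI (unique molecular identifier, which counts RNA molecules) of each of Tnni3, Tnnt2, Tnnc1 and Actc1 and were kept as CMs. Total UMIs ranged from 13213992 to 19714177 per library and the median per CM from 1831 in P1-2n to 4658 in P5-4n. Levels are given in counts per 1000000 UMIs (CPM) summed over the CMs of a library, with 95% intervals that cover counting error only. The 6 fibroblast markers summed to 126, 131 and 243 CPM in the 2n and to 750, 886 and 334 CPM in the 4n libraries at E16.5, P1 and P5, none of them at 0, and the endothelial markers to 26.4, 27.6 and 60.5 CPM in the 2n and to 104.5, 120.5 and 64.0 CPM in the 4n libraries, so that both marker sums were higher in 4n, at E16.5 and P1 above all. Erythroid markers, which CMs do not express, were present in all libraries at 1649 to 10332 CPM, as free RNA in the droplets can give, and no cell type that should lack the 10 genes was at hand to set a background for them. After each CM was thinned to 1000 UMIs, 54.4% to 86.9% of CMs held an erythroid UMI. Shares of CMs with a UMI of a gene are given after the same thinning, which leaves out up to 700 shallower CMs of a library. At most 1.22% of a library's cell barcodes were shared with another library.

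**Figure D1:**
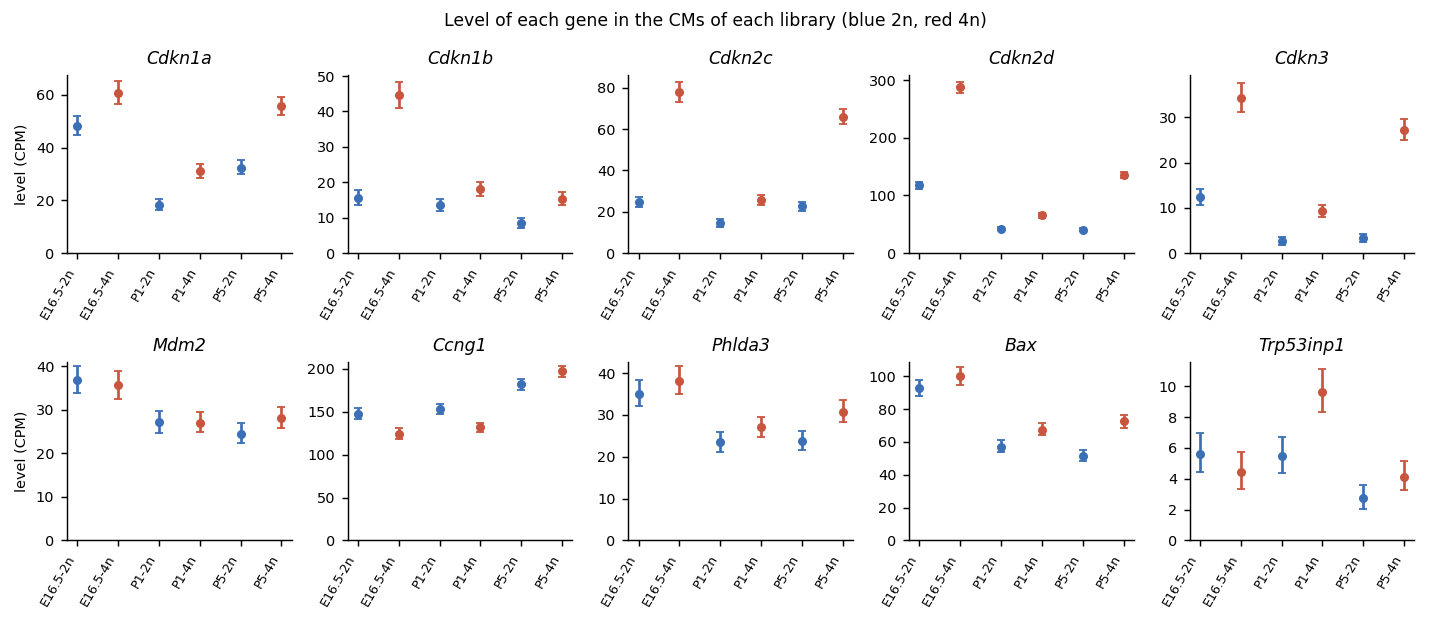
Level of each gene (y axis, CPM) in the CMs of E16.5, P1 and P5, 2n in blue and 4n in red, with 95% Poisson intervals, 1 library per point. Cdkn2c, Cdkn2d and Cdkn3 stood higher in 4n than in 2n at each age, whereas Mdm2 spanned only 24.5 to 36.9 CPM.

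Cdkn2d and Cdkn2c, the INK4 inhibitors, were higher in 4n than in 2n CMs at each age. In CPM they were highest in E16.5-4n and had a second high level in P5-4n. Cdkn2d (chromosome 9, 21288410 to 21291407, GRCm38) was at 117 CPM (2n) and 287 CPM (4n) at E16.5, at 42.7 and 65.2 CPM at P1 and at 40.6 and 136 CPM at P5. The lowest level of Cdkn2d, in P5-2n, was 7.08-fold under the highest, and only the neighbours P5-2n and P1-2n were not separated by counting error. After thinning to 1000 UMIs, 22.6% of E16.5-4n CMs (95% Clopper-Pearson interval 21.4 to 23.8) held a Cdkn2d UMI, against 4.43% of P1-2n CMs (3.95 to 4.95) and 10.9% of P5-4n CMs (9.93 to 12.0). Without thinning the shares were 42.4%, 8.77% and 34.0%. In P5-4n, 317 CMs held 3 or more Cdkn2d UMIs and 34.0% held any, where a spread over all CMs in proportion to their depth would have given 47.2%, so that its UMIs were concentrated in part of the CMs.

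Cdkn2c (chromosome 4, 109660876 to 109667189) was at 24.5 CPM in 2n and 77.9 CPM in 4n CMs at E16.5, 14.4 and 25.6 CPM at P1, and 22.6 and 66.0 CPM at P5. P5-2n, E16.5-2n and P1-4n followed each other in this order without separation beyond counting error, and the other neighbours were separated. The share of CMs with a Cdkn2c UMI at 1000 UMIs was 7.27% in E16.5-4n (6.55 to 8.03) and 6.02% in P5-4n (5.27 to 6.84), but 1.40% in P1-2n (1.13 to 1.71). Unthinned, the shares were 16.3%, 22.1% and 3.05%. E16.5-4n and P5-4n were thus the libraries with the most Cdkn2c, as they were for Cdkn2d. The order of Cdkn2c levels is that of CPM and depends on the scaling. Relative to the median of all genes, P5-4n stood above E16.5-4n, at a log2 ratio of 0.27 (0.15 to 0.39). P5-2n likewise stood above E16.5-2n, at 0.33 (0.12 to 0.54).

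Among the CIP/KIP inhibitors, Cdkn1a and Cdkn1b did not follow the same course. Cdkn1a (chromosome 17, 29090976 to 29100727) was at 48.2 CPM (2n) and 60.8 CPM (4n) at E16.5, at 18.4 and 31.0 CPM at P1 and at 32.4 and 55.6 CPM at P5. It was lowest at P1 in both ploidies, and in CPM the P5-4n level did not differ from that of E16.5-4n beyond counting error. Relative to the median of all genes, Cdkn1a was higher in P5-4n than in E16.5-4n, at a log2 ratio of 0.38 (0.24 to 0.51). At 1000 UMIs, 4.66% (4.12 to 5.25) of E16.5-2n CMs, 1.61% (1.32 to 1.94) of P1-2n CMs and 2.75% (2.29 to 3.28) of P5-2n CMs held a Cdkn1a UMI. The 4n shares were 5.02% (4.43 to 5.68), 2.82% (2.37 to 3.33) and 4.90% (4.22 to 5.65) at the same ages. Unthinned shares ran from 3.79% in P1-2n to 20.7% in P5-4n, an order that also carries the greater depth of P5-4n.

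Cdkn1b (chromosome 6, 134920401 to 134925513) was at 15.6 CPM in 2n and 44.6 CPM in 4n CMs of E16.5, at 13.5 and 18.1 CPM in those of P1 and at 8.48 and 15.4 CPM in those of P5. E16.5-4n stood apart from all other libraries, P5-2n lay below all others, and the steps from P1-2n to P5-4n, E16.5-2n and P1-4n, in this order, were within counting error. Cdkn1b was found in 5.64% (5.01 to 6.33) of E16.5-4n CMs at 1000 UMIs and in 1.00% (0.729 to 1.34) to 1.85% (1.49 to 2.28) of CMs of the other 5 libraries. No other gene of the count tables overlaps Cdkn1b or any of the other 9 genes.

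Cdkn3 (chromosome 14, 46760541 to 46771669), the phosphatase whose promoter is shown above, had the widest range of the 10 genes. It was at 12.3 CPM in 2n and 34.4 CPM in 4n CMs at E16.5, 2.61 and 9.25 CPM at P1, and 3.35 and 27.2 CPM at P5, so that the highest level was 13.1-fold over the lowest. In CPM, only P1-2n and P5-2n were not separated by counting error. Relative to the median of all genes, the log2 ratio of P5-4n over E16.5-4n was 0.17 (-0.01 to 0.36), an interval that held 0. Cdkn3 was sparse, with 43 UMIs at P1 and 60 at P5 in the 2n libraries. At 1000 UMIs its share of CMs was 0.256% (0.149 to 0.410) in P1-2n and 3.17% (2.70 to 3.70) in E16.5-4n.

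Of the p53 targets other than Cdkn1a, Mdm2, Phlda3, Bax and Ccng1 varied less between libraries than Cdkn1a did, and Trp53inp1 did not, with ranges of 1.505-fold to 1.94-fold for the former, 3.31-fold for Cdkn1a and 3.53-fold for Trp53inp1. Mdm2 (chromosome 10, 117688875 to 117710758) was at 36.9 CPM (2n) and 35.6 CPM (4n) at E16.5, at 27.2 and 27.1 CPM at P1 and at 24.5 and 28.2 CPM at P5, where 2n and 4n of the same age differed by at most 0.20 on the log2 scale. Phlda3 (chromosome 1, 135766119 to 135769136) was at 35.1, 38.2, 23.5, 27.1, 23.8 and 30.8 CPM in the same order of libraries. Bax (chromosome 7, 45461697 to 45466898) was at 93.0, 100.4, 57.2, 67.6, 51.7 and 72.6 CPM. For these 3 genes both E16.5 libraries stood above all postnatal ones in CPM, but the median of all genes was also lower after birth, and ratios are therefore also given relative to it. For P5-2n over E16.5-2n the log2 ratio was -0.14 (-0.32 to 0.04) for Mdm2, -0.11 (-0.30 to 0.08) for Phlda3 and -0.40 (-0.52 to -0.27) for Bax. For P5-4n over E16.5-4n it was 0.17 (-0.01 to 0.35), 0.20 (0.02 to 0.38) and 0.04 (-0.07 to 0.15) for the same genes. Bax at P1 over E16.5 was at -0.37 (-0.49 to -0.24) among 2n and at -0.27 (-0.38 to -0.16) among 4n CMs.

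Ccng1 (chromosome 11, 40748552 to 40755311) went the other way with age. Its levels were 148 CPM in 2n and 124 CPM in 4n CMs at E16.5, 153 and 132 CPM at P1, and 182 and 197 CPM at P5, with both P5 libraries above all earlier ones. At 1000 UMIs it was detected in 10.8% (9.97 to 11.7) of E16.5-4n CMs and in 18.0% (16.7 to 19.3) of P5-4n CMs. Trp53inp1 (chromosome 4, 11156431 to 11174379) was the sparsest of the 10, with 545 UMIs over the 6 libraries. It was at 5.61, 4.44, 5.47, 9.66, 2.73 and 4.13 CPM in the same order of libraries, and both its highest level, in P1-4n, and its lowest, in P5-2n, were separated from the next in order by counting error. The P1-4n library was also the one with the highest fibroblast marker level, and without CMs that held other cell type markers Trp53inp1 was at 8.83 CPM there.

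To compare 2n with 4n CMs, the log2 ratio of CPM was taken and the median log2 ratio of all genes with at least 100 UMIs over both libraries was subtracted, and a gene counted as past a fold of 2 when the result reached 1 in size. At E16.5, 4 of the 10 genes were past a fold of 2, all higher in 4n, where 4.52% of all 9625 genes tested were past it in either direction. These were Cdkn2c at 1.63 on the log2 scale (1.46 to 1.81), Cdkn1b at 1.48 (1.26 to 1.71), Cdkn3 at 1.45 (1.20 to 1.71) and Cdkn2d at 1.26 (1.17 to 1.34). Cdkn1a was at 0.30 (0.15 to 0.45), and the 5 other p53 targets lay between -0.37 and 0.09. At P1, Cdkn3 alone was past a fold of 2, at 1.77 (1.29 to 2.29), 1 of 10 where 5.00% of all genes were, and Cdkn2c, Trp53inp1 and Cdkn1a followed at 0.79, 0.77 and 0.71. At P5, 3 of 10 were past it against 2.22% of all genes, namely Cdkn3 at 3.01 (2.62 to 3.42), Cdkn2d at 1.73 (1.61 to 1.85) and Cdkn2c at 1.53 (1.36 to 1.69), followed by Cdkn1b at 0.84 (0.55 to 1.13) and Cdkn1a at 0.76 (0.61 to 0.91).

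Cdkn3 had the greatest difference of the 10 genes at P1 and P5, and at P5 it was 8.03-fold higher in 4n. The fibroblast and endothelial markers were higher in 4n as well, as given above. When CMs with 2 or more UMIs of the 20 fibroblast, endothelial, mural and immune markers at 1000 UMIs were left out, which removed 17.4% of E16.5-4n and 21.9% of P1-4n CMs but 1.72% and 2.12% of the 2n CMs, these 4, 1 and 3 genes were again the ones past a fold of 2, and at E16.5 Cdkn2c and Cdkn2d were at 1.85 and 1.44. Of the p53 targets, Phlda3 and Bax were at 0.35 (0.17 to 0.54) and 0.47 (0.35 to 0.59) at P5, higher in 4n by less than a fold of 2.

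**Figure D2:**
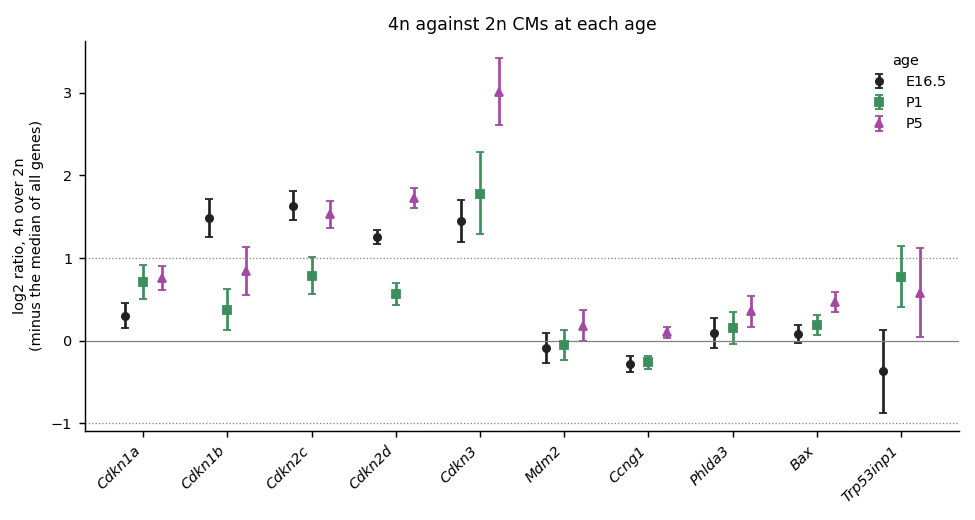
Log2 ratio of 4n over 2n CMs, minus the median of all genes (y axis), for each gene at E16.5, P1 and P5, with 95% counting intervals. The dotted lines mark a fold of 2, which Cdkn3 passed at all 3 ages and Cdkn2c and Cdkn2d at E16.5 and P5, while Mdm2, Ccng1, Phlda3 and Bax stayed between the lines.

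Across ages, the median log2 ratio of all genes was itself below 0, at -0.34 for P1 and -0.45 for P5 against E16.5 in 2n and at -0.30 and -0.51 in 4n, and ratios are given relative to it. Between E16.5-2n and P1-2n, 3 of 10 genes were past a fold of 2, all lower at P1, where 10.1% of all genes were past it. They were Cdkn3 at -1.90 (-2.41 to -1.41), Cdkn2d at -1.13 (-1.25 to -0.998) and Cdkn1a at -1.06 (-1.26 to -0.86). Between P1-2n and P5-2n none of the 10 was, against 5.01% of all genes, with Cdkn1a at 0.91 (0.71 to 1.12) and Trp53inp1 at -0.91 (-1.44 to -0.39) the farthest from 0. From E16.5-2n to P5-2n, Cdkn3 at -1.43 and Cdkn2d at -1.08 were past a fold of 2, 2 of 10 against 12.7% of all genes.

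In 4n CMs, both comparisons with P1 held more genes past a fold of 2 than in 2n, and that of E16.5 with P5 held as many. From E16.5-4n to P1-4n, 5 of 10 genes were past a fold of 2 against 11.8% of all genes, with Cdkn2d at -1.84 (-1.93 to -1.75), Cdkn3 at -1.59, Cdkn2c at -1.31 and Cdkn1b at -1.001 lower, and Trp53inp1 at 1.42 (0.99 to 1.87) higher at P1. From P1-4n to P5-4n, 5 of 10 were past a fold of 2 against 7.20% of all genes, with Cdkn3 at 1.72, Cdkn2c at 1.53, Cdkn2d at 1.22 and Cdkn1a at 1.001 higher and Trp53inp1 at -1.07 lower at P5. These comparisons share the P1-4n library, so that a value particular to it enters both. Between E16.5-4n and P5-4n, 2 of 10 were past a fold of 2 where 14.1% of all genes were. Ccng1 was higher in P5-4n at 1.18 (1.09 to 1.26) and Cdkn1b lower at -1.03 (-1.24 to -0.82). Without subtraction of the median, Ccng1 was at 0.67 and no longer past a fold of 2, Cdkn2d was at -1.08 and past it, and Cdkn1a, Cdkn2c and Cdkn3 turned from values of 0.38, 0.27 and 0.17 to -0.13, -0.24 and -0.34. The values of Cdkn1a from P1-4n to P5-4n and of Cdkn1b from E16.5-4n to P1-4n lay at the threshold, and under the alternatives run they ranged from 0.83 to 1.04 and from -0.97 to -1.30.

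To ask in which phase the genes were expressed, each CM was given a phase from its scores for 43 S and 54 G2/M genes, none of which is among the 10. All libraries were scored together. CMs with neither score positive were called G1, which therefore also holds resting and binucleated CMs. Among 2n CMs, 10.98%, 1.35% and 3.24% were called G2/M at E16.5, P1 and P5, and among 4n CMs 47.9%, 7.52% and 32.7%. With phases scored in each library on its own, the shares were 16.6%, 16.0% and 10.7% in 2n and 37.7%, 15.1% and 26.7% in 4n. By that scoring the 4n share was not the larger at P1, and P1-2n held 1175 G2/M CMs instead of 99. Phases were drawn from the transcriptome of the same cells, and the values that follow are a description of the CMs so divided.

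Cdkn2c, Cdkn2d and Cdkn3 were highest in G2/M CMs in each of the 6 libraries. The level of Cdkn2c in G1, S and G2/M CMs was 6.72, 39.4 and 75.0 CPM in E16.5-2n, and 8.53, 33.4 and 139.6 CPM in E16.5-4n. In P5-4n the levels of Cdkn2c were 14.4, 63.6 and 154.6 CPM. In each of these libraries S lay between G1 and G2/M. Cdkn2d was at 96.6 CPM in G1, 116 in S and 474 in G2/M CMs of E16.5-4n. In P5-4n, Cdkn2d was at 35.5 CPM in G1, 92.4 in S and 318 in G2/M. After birth its G1 level was lower, at 29.3 to 39.1 CPM in the 4 postnatal libraries against 95.1 and 96.6 CPM at E16.5, whereas G2/M CMs of P1-4n and P5-4n still held 315 and 318 CPM.

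Cdkn3 was at 57.9, 65.0 and 62.4 CPM in the G2/M CMs of E16.5-4n, P1-4n and P5-4n and at 11.8, 3.52 and 9.02 CPM in their G1 CMs, and the counting intervals of the G2/M levels overlapped (52.2 to 64.1, 54.0 to 77.6 and 56.3 to 68.9 CPM). In the G2/M CMs of the 2n libraries it was at 59.0 (47.9 to 71.8), 74.8 (43.6 to 119.8) and 31.3 (18.8 to 48.9) CPM at E16.5, P1 and P5, the last of them from 19 UMIs. Cdkn1b was at 57.8 CPM in G2/M and 31.4 CPM in G1 CMs of E16.5-4n, and at 24.1 and 10.6 CPM in P5-4n. At 1000 UMIs, 36.8% of G2/M and 9.45% of G1 CMs of E16.5-4n held a Cdkn2d UMI, and the shares for Cdkn2c were 13.3% (11.9 to 14.7) and 0.822% (0.450 to 1.37).

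**Figure D3:**
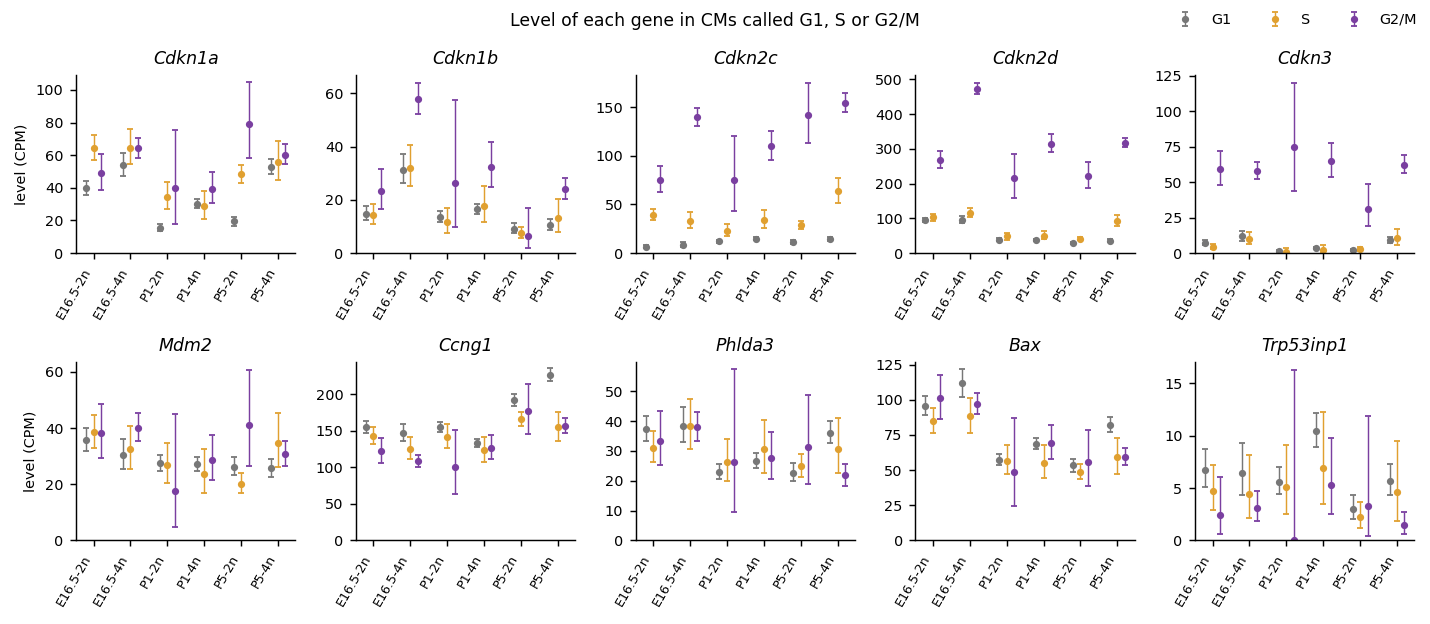
Level of each gene (y axis, CPM) in CMs called G1, S and G2/M in each library, with 95% Poisson intervals. Cdkn2c, Cdkn2d and Cdkn3 stood highest in G2/M in every library, while Cdkn1a in P5-2n went from 19.4 CPM in G1 to 79.1 in G2/M and in P5-4n stood at 52.8 CPM in G1 already.

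Between G2/M and G1 CMs, Cdkn2c was past a fold of 2 in all 6 libraries, from 2.52 on the log2 scale in P1-2n to 4.06 in E16.5-4n, and Cdkn2d likewise, from 1.48 in E16.5-2n to 3.06 in P1-4n. Cdkn3 was past it in the 4 libraries where it had 100 UMIs in both phases together, at 2.33 to 4.20, and Trp53inp1 reached 100 UMIs in P1-4n alone. In E16.5-2n and E16.5-4n these 3 genes were the ones past a fold of 2, against 4.08% and 7.87% of all genes. In P1-4n they were again 3, against 6.31% of all genes. In P5-4n, 4 genes were, against 7.52%, the fourth being Cdkn1b at 1.04 (0.67 to 1.40). In P1-2n and P5-2n, Cdkn1a joined Cdkn2c and Cdkn2d, 3 against 16.7% and 10.8% of all genes. G2/M CMs of P1-4n were deeper than its G1 CMs, with medians of 4321 and 3105.5 UMIs. P1-2n held only 99 G2/M CMs, its Cdkn1a value rested on 9 UMIs in them, and none of the 3 genes was past a fold of 2 there when phases were scored in each library on its own.

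For Cdkn1a, the phases were set apart in P5-2n and not in P5-4n. In P5-2n CMs its level was 19.4 CPM in G1, 48.3 in S and 79.1 in G2/M, a difference of 1.89 between G2/M and G1 (1.41 to 2.35). In P5-4n CMs the levels of Cdkn1a were 52.8, 55.7 and 60.3 CPM, a difference of 0.05 (-0.15 to 0.24). The intervals of these 2 values did not overlap, but with 1 library each the difference between them could not be tested. The G2/M level of P5-2n rested on 48 UMIs in 143 CMs, which had been sorted as 2n. A higher level in S than in G1 was not particular to P5-2n. In S and G1 CMs, Cdkn1a was at 34.6 (27.2 to 43.4) and 15.5 (13.5 to 17.7) CPM in P1-2n and at 64.2 and 39.6 CPM in E16.5-2n. In P1-4n these levels were 28.8 and 30.3 CPM, and in E16.5-4n 64.6 and 53.7 CPM. Among the other p53 targets, P5-4n gave values below 0, with Phlda3 at -0.87 (-1.16 to -0.59), Ccng1 at -0.67 (-0.78 to -0.56) and Bax at -0.62 (-0.80 to -0.44) in G2/M against G1, all lower in G2/M and none past a fold of 2. Mdm2 was at 0.12 (-0.16 to 0.39) there. Lower values in G2/M were not particular to P5-4n. Ccng1 was at -0.36 (-0.58 to -0.15) in E16.5-2n and -0.42 (-0.57 to -0.26) in E16.5-4n. In P1-2n it was at -0.74 (-1.40 to -0.15), from 23 UMIs in G2/M, and in P1-4n and P5-2n its intervals held 0. Bax was at -0.18 (-0.35 to -0.002) in E16.5-4n. In the remaining libraries the intervals of Bax and Phlda3 held 0. Trp53inp1 was at -0.97 (-2.06 to -0.06) in P1-4n, where alone it had enough UMIs to be tested. With too few UMIs, it was at -2.11 (-3.31 to -1.09) in P5-4n, from 60 UMIs in G1 and 9 in G2/M. It was likewise below 0 in E16.5-2n and E16.5-4n, and in P5-2n its interval held 0.

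Since 4n libraries held larger shares of G2/M CMs when all libraries were scored together, the ploidies were also compared within G1 CMs alone. This comparison was added after the values above had been seen. In G1 CMs of P5, Cdkn1a was at 52.8 CPM in 4n and 19.4 CPM in 2n, or 1.48 on the log2 scale (1.24 to 1.71), 2.78-fold higher in 4n. Cdkn1a and Cdkn3, at 2.14 (1.46 to 2.88), were the 2 genes past a fold of 2 of 9 that reached 100 UMIs, where 0.629% of all genes tested were. At 1000 UMIs, 4.15% (3.35 to 5.09) of 4n and 1.87% (1.40 to 2.46) of 2n G1 CMs of P5 held a Cdkn1a UMI, so that more 4n CMs held a UMI. The ratio of Cdkn1a was 0.43 (0.19 to 0.68) at E16.5 and 0.93 (0.70 to 1.17) at P1. Its intervals at E16.5 and P5 did not overlap, but they cover counting error only. With 1 library per group, the difference between ages could not be tested. Phlda3 at 0.70 (0.46 to 0.94), Bax at 0.66 (0.51 to 0.82) and Ccng1 at 0.27 (0.18 to 0.36) were also higher in 4n G1 CMs of P5, under a fold of 2, and Mdm2 was at 0.00 (-0.25 to 0.25).

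For the INK4 genes the values within G1 were smaller than over all CMs. Cdkn2d was at 0.02 (-0.16 to 0.19), -0.09 (-0.26 to 0.08) and 0.31 (0.09 to 0.53) at E16.5, P1 and P5, and Cdkn2c at 0.34, 0.28 and 0.33 with intervals that each reached 0. Cdkn1b kept a difference at E16.5, at 1.08 (0.72 to 1.45), the 1 gene past a fold of 2 of 8 that reached 100 UMIs in G1 CMs of that age, against 2.63% of all genes, and at 1.001 with CMs holding other cell type markers left out. At P1 none of the 9 that reached 100 UMIs was, against 3.94% of all genes, and Cdkn3, which did not reach them, was at 1.01 (0.30 to 1.76). Without CMs holding other cell type markers, Cdkn1a at P5 was at 1.51 (1.26 to 1.75), and with phases scored in each library at 1.42 (1.20 to 1.66). With phases scored in each library, however, Cdkn2c at 1.09 and Cdkn3 at 1.39 were past a fold of 2 beside Cdkn1b in the G1 CMs of E16.5. That scoring put Cdkn2c at 0.48 (0.15 to 0.82) and Cdkn2d at 0.47 (0.26 to 0.69) at P5, both clear of 0. Without CMs holding other cell type markers, Cdkn2c at P1 was at 0.35 (0.03 to 0.66).

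**Figure D4:**
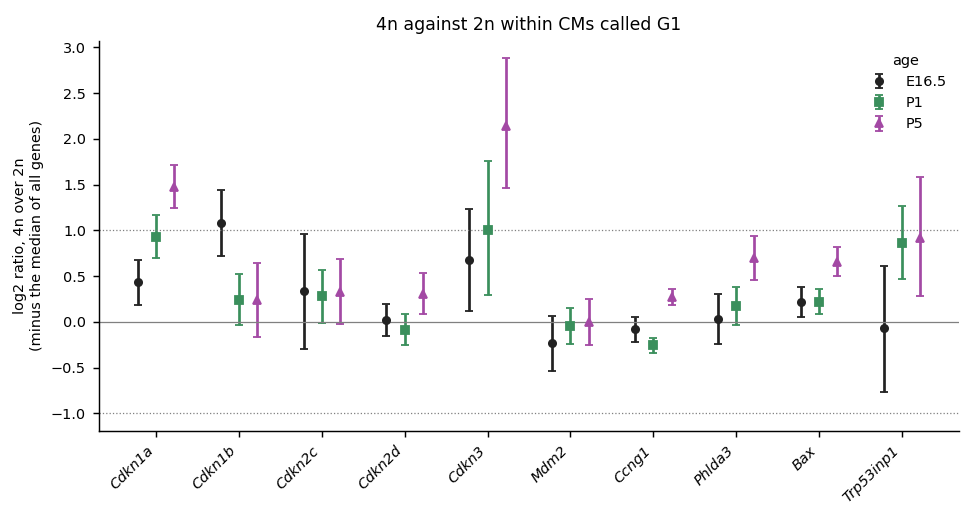
Log2 ratio of 4n over 2n within CMs called G1, minus the median of all genes (y axis), at E16.5, P1 and P5, with 95% counting intervals and dotted lines at a fold of 2. Cdkn1a went from 0.43 at E16.5 to 1.48 at P5, and Cdkn2d lay between -0.09 and 0.31.

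To see whether Cdkn1a was found in the same CMs as the other p53 targets, the summed level of Mdm2, Ccng1, Phlda3, Bax and Trp53inp1 was compared between CMs with and without a Cdkn1a UMI after thinning to 1000 UMIs. For 2n CMs of E16.5, P1 and P5 the sum was 287, 327 and 355 CPM with and 326, 262 and 277 CPM without Cdkn1a, or log2 ratios of -0.18 (-0.54 to 0.15), 0.32 (-0.21 to 0.80) and 0.36 (-0.11 to 0.80). For 4n CMs it was 324, 343 and 352 CPM with and 289, 249.5 and 331 CPM without, or 0.17 (-0.18 to 0.49), 0.46 (0.0022 to 0.89) and 0.09 (-0.30 to 0.46). Only in P1-4n did the interval lie above 0, and without CMs holding other cell type markers it was -0.15 to 0.90. In these 6 comparisons no interval reached a fold of 2 in either direction. At 2000 UMIs all 6 ratios were positive, from 0.16 to 0.48, and the intervals of P1-4n (0.24 to 0.72) and P5-4n (0.02 to 0.41) lay above 0. Split at 1000 UMIs, CMs with and without a Cdkn1a UMI had median depths of 2336.5 and 2272.5 UMIs in E16.5-2n and 4919 and 4629 in P5-4n before thinning. Without thinning, the ratio was 0.26 (0.15 to 0.37) in E16.5-4n, 0.21 (0.03 to 0.38) in P1-2n, 0.36 (0.26 to 0.46) in P1-4n and 0.34 (0.26 to 0.41) in P5-4n. The intervals of E16.5-2n, at 0.11, and of P5-2n, at 0.06, held 0. CMs with Cdkn1a were deeper in that split, with medians of 5536 against 4445 UMIs in P5-4n. For Mdm2, Phlda3 and Trp53inp1 alone at 1000 UMIs, the ratio was 1.15 (0.22 to 1.95) in P5-2n, from 13 UMIs in 121 CMs with Cdkn1a, and -0.044 (-1.27 to 0.95) in P1-4n. In P5-2n CMs without Cdkn1a, Ccng1 and Bax made up 179 and 49.2 of the 277 CPM of the sum.

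**Figure D5:**
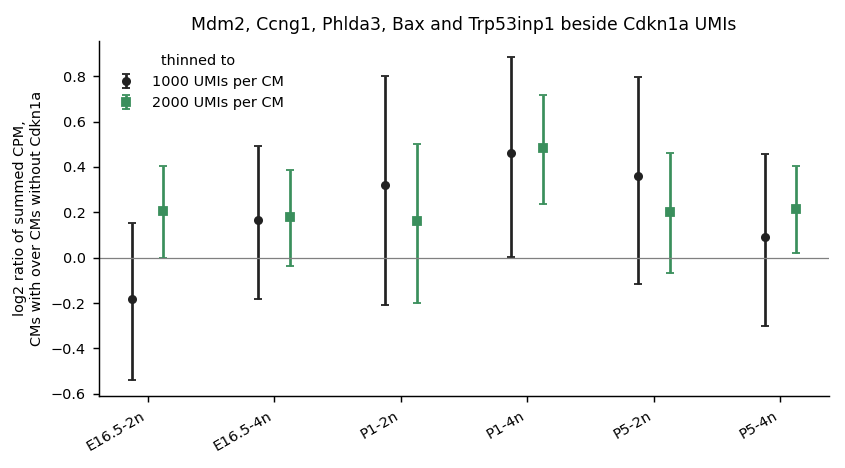
Log2 ratio of the summed CPM of Mdm2, Ccng1, Phlda3, Bax and Trp53inp1 in CMs with over CMs without a Cdkn1a UMI (y axis) in each library, with 95% counting intervals, after thinning to 1000 or 2000 UMIs per CM. All values lay between -0.18 and 0.48, under a fold of 2. CMs without a Cdkn1a UMI can include CMs that express it.

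The rest of the pathway was followed with lists of related genes. Of the 3 CDK inhibitors that are not among the 10, Cdkn1c (p57) was at 103 CPM in 2n and 174.7 CPM in 4n CMs at E16.5, 11.4 and 28.3 CPM at P1, and 4.30 and 5.71 CPM at P5, and Cdkn2a and Cdkn2b did not reach 100 UMIs in any comparison. Between P1-2n and P1-4n, Cdkn1c was higher in 4n at 1.27 on the log2 scale, and it was lower than in E16.5 CMs of the same ploidy in each postnatal library, by a log2 ratio of -2.33 to -4.43. Of the 4 CDKs that the inhibitors bind (Cdk1, Cdk2, Cdk4 and Cdk6), Cdk1, which drives entry into mitosis, was past a fold of 2 between 4n and 2n at E16.5, P1 and P5, at 1.99, 1.83 and 1.86, and the others were not. Among 26 other p53 targets and regulators, 19, 18 and 18 were tested at the 3 ages. Gtse1, which is expressed in G2 and binds p53, was the 1 gene past a fold of 2 at E16.5 and at P5, at 2.32 and 2.15. At P1 none of the genes tested was, but Gtse1 was at 2.36 (1.44 to 3.43) there and was left out of the count for having fewer than 100 UMIs. Eda2r, named after its values were seen, was left out for the same reason. It was at 1.65 (0.49 to 2.98) at P1, from 31 UMIs in 4n and 8 in 2n. At P5 it was at 1.25 (0.59 to 1.96), from 67 and 27 UMIs, and at E16.5 its interval held 0. The medians of this list were -0.08, 0.04 and 0.07.

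With age, from E16.5-4n to P5-4n, 3 of 19 genes of the list of p53 targets and regulators were past a fold of 2 higher and 4 lower, where 7.15% of all genes were higher and 6.99% lower. Btg2, an antiproliferative gene, was at -2.10, Trp53, which encodes p53, at -1.66, Tigar, a regulator of glycolysis, at 1.35 and Aen, a nuclease, at 1.28. Trp53 was at 40.2 CPM in E16.5-4n and 8.91 in P5-4n, and at 39.0 and 12.3 CPM in the 2n libraries. Tigar, Aen and Perp, the 3 higher genes, were at 30.3, 43.1 and 378 CPM in P5-4n and at 16.8, 25.2 and 268 CPM in E16.5-4n, so that without subtraction of the median none of them was past a fold of 2. Apaf1 and Ppm1d, named like Perp after their values were seen, were then lower past a fold of 2, at 4.62 and 8.48 CPM in P5-4n against 10.9 and 17.8 CPM in E16.5-4n. Of 9 genes of the BCL2 family, relatives of Bax, none was past a fold of 2 relative to the median in any of the 9 comparisons of libraries. Without that subtraction, Bnip3 and Bnip3l, also named after their values were seen, were among those lower past a fold of 2 in P5-4n. They were at 60.6 and 64.7 CPM there and at 153.0 and 168.2 CPM in E16.5-4n.

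Stress genes were counted because tissue dissociation can induce them. The 9 immediate early and heat shock genes summed to 1301 and 1271 CPM in E16.5-2n and E16.5-4n, 744 and 1068 at P1 and 377 and 413 at P5. Between 4n and 2n none of them was past a fold of 2 at any age. The median log2 ratios of the 9 genes were 0.06, 0.54 and 0.17 at E16.5, P1 and P5. Cdkn1a was at 0.30, 0.71 and 0.76 in these comparisons. From E16.5-2n to P1-2n, 1 of the 9 was higher and 2 were lower past a fold of 2, where Cdkn1a was at -1.06. Of all genes, 3.87% were higher and 6.21% lower past it in that comparison. From P1-4n to P5-4n, 6 of 9 were lower past a fold of 2, against 4.07% of all genes. Egr1 at -1.72, Junb at -1.55, Ier2 at -1.51 and Fosb at -1.49 were among them, in the comparison in which Cdkn1a was higher. The 8 stress genes of the ATF4 type summed to 342, 347, 246, 256, 133 and 162 CPM in the order of the libraries. From E16.5-4n to P1-4n, 3 of their 7 genes tested were higher, Asns (2.13), Trib3 (1.73) and Atf5 (1.36), and Psat1 was lower (-1.49). Of all genes, 5.06% were higher and 6.77% lower past a fold of 2 there. Trp53inp1 was higher from E16.5-4n to P1-4n and lower from P1-4n to P5-4n, where Trib3 was at -4.05 and Asns at -3.11. From E16.5-2n to P1-2n, 3 of the 7 tested were higher and 1 lower, against 3.87% and 6.21% of all genes, with Trp53inp1 at 0.30 (-0.15 to 0.75). Between P1-4n and P1-2n, Trp53inp1 was higher in 4n at 0.77 (0.40 to 1.15). Trib3 at -0.68 (-0.98 to -0.37) and Asns at -0.36 (-0.56 to -0.16) were lower there, and the 7 genes tested had a median of 0.11. The part of the stress genes in these results was not tested.

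The genes most like each of the 10 over the 6 libraries were taken by the root mean square distance between profiles of log2(CPM + 1), each centred on its mean, among 7962 genes with at least 600 UMIs. For Cdkn2c these were Hjurp (0.21), Stk17b (0.24) and Nde1 (0.24), for Cdkn2d Cdc25b (0.18), G2e3 (0.21) and H2afx (0.22), and for Cdkn3 Knstrn (0.20), Lockd (0.22) and Cenpa (0.23), where the profiles of the 3 genes themselves had a root mean square of 0.85, 0.99 and 1.23. Cdkn1a was nearest to 1500009L16Rik (0.12), Arpin (0.16) and Carhsp1 (0.17), and Cdkn1b to Spry2 (0.19), Ccng2 (0.20) and Zscan26 (0.22). Mdm2 lay nearest to Bcap31 (0.02), Ccng1 to Atg4d (0.05), Phlda3 to Znrd1 (0.04), Bax to Tdg (0.05) and Trp53inp1 to Gmppa (0.17). The 6 points share depth and the scale of each library, and the profiles of Mdm2, Ccng1, Phlda3 and Bax had a root mean square of only 0.21, 0.23, 0.26 and 0.34.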

How the data were processed

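Per the labels and the study's methods, the authors sequenced 10x 3′ libraries on a NextSeq instrument, aligned the reads with Cell Ranger (which runs STAR; versions not given in the sources used here) to mouse GRCm38/mm10, and deposited UMI counts of 27998 genes in filtered cells of 6 libraries. The submitters' processing notes also name Seurat 2.3.0. The count matrices were used as deposited. A deposited list of gene symbols and the authors' table of their own comparison were not used.

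Cells with at least 1 UMI of each of Tnni3, Tnnt2, Tnnc1 and Actc1 were kept as CMs, and doublets were neither called nor removed. For each library, the UMIs of a gene in all CMs were divided by the UMIs of all genes in these CMs (CPM). Intervals are 95% exact Poisson (levels), Clopper-Pearson (shares) and binomial (ratios), and cover counting error only. A gene was tested with at least 100 UMIs over both sides of a comparison and was past a fold of 2 when its log2 CPM ratio, less the median of all genes tested, reached 1 in size. No p-value was computed, since each group has 1 library. The script was tested on simulated counts. Phases were scored with Seurat 5.3.0 in R 4.3.3, and the rest was computed with Python 3.11.15, numpy 2.4.6, scipy 1.17.1 and pandas 2.3.3. Positions are GRCm38 (GENCODE annotation). Of the gene symbols in the tables, 56 stand for more than 1 gene, none of them among the 10.

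The 10 genes and all lists were chosen with earlier results of these data known. The text names all 10 genes, at most 4 genes of a list past a fold of 2 in a comparison, by size, and the 3 nearest profiles. Alternatives changed the scaling, the CM filter, the depth, the minimum of UMIs, the fold and the phase scoring, and left out CMs with markers of other cell types. The comparisons within G1 CMs were added after seeing the data.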

Additional observations from a re-analysis of the deposited data

Results flagged for a closer look

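Ccng1 was the 1 gene of the 10 whose log2 ratio of 4n over 2n, relative to the median of all genes, took opposite directions at different ages with intervals clear of 0. The ratio was -0.28 (-0.38 to -0.19) at E16.5 and -0.26 (-0.34 to -0.18) at P1, lower in 4n, and 0.098 (0.030 to 0.17) at P5, higher in 4n. With 1 library per group the difference between ages was not tested, and none of the 3 values reached a fold of 2. The level of Ccng1 was 148 and 124 CPM in 2n and 4n at E16.5, 153 and 132 CPM at P1, and 182 and 197 CPM at P5.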

How the results depend on the processing

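Of 189 alternative values of the counts of genes past a fold of 2 and of the co-detection ratios, 160 stayed within 1.5 times the count or inside the counting interval. With a fold of 1.5 the count was 4 (P1) and 5 (P5) between 4n and 2n, 3 between P1-2n and P5-2n, 4 between E16.5-2n and P5-2n, and 6, 5 and 7 between G2/M and G1 CMs of P1-2n, P1-4n and P5-4n. The shares of all genes given above are for a fold of 2 without thinning. These counts, and those at other settings below, therefore have no such share beside them and do not show whether the genes stand out. Thinning leaves fewer genes with 100 UMIs. At 1000 UMIs it gave 0 for P1-4n against P1-2n, 1 for P5-2n against E16.5-2n and 3 for P5-4n against P1-4n, and at 2000 UMIs 0 and 3 for the first and the last of these and 1 for P1-2n against E16.5-2n. Thinned before scoring, G2/M against G1 CMs gave 1, 1 and 2 in E16.5-2n, P5-2n and P5-4n. From P1-2n to P5-2n the count was 1 with no median subtracted and 2 with the mean over CMs, and from P1-4n to P5-4n it was 3 without CMs holding other cell type markers. The cause was not tested. With phases scored in each library, P1-2n gave 0. Within G1 CMs, a choice made after seeing the data, the count was 1 at E16.5, also without CMs holding other markers, and 0 at P1 in all 3 forms. For CMs with against without a Cdkn1a UMI, the ratio in E16.5-2n was 0.20 at 2000 UMIs and 0.33 for Mdm2, Phlda3 and Trp53inp1 alone, and for these 3 genes it was 1.15 in P5-2n and turned to -0.044 in P1-4n. No paired analysis was possible because each group has 1 library.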

Other observations

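Lockd, a noncoding RNA gene 3579 bases from Cdkn1b on the same strand, came up among the 3 nearest profiles of Cdkn3 and not of Cdkn1b, and was singled out after its values were seen. In 2n and 4n CMs it was at 101 and 273 CPM at E16.5, at 35.7 and 82.7 CPM at P1 and at 47.4 and 289.6 CPM at P5. P5-4n and E16.5-4n were thus both high in Lockd, whereas Cdkn1b was high in E16.5-4n at 44.6 CPM and at 15.4 CPM in P5-4n.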
